A study of Homo sapiens with 32 samples.

Results

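The cadherin switch and vimentin are the transcripts by which epithelial-mesenchymal transition (EMT) is usually read, and 10 genes of that kind were followed in drug-treated MDA-MB-468 cells: the cadherins CDH1, CDH2 and CDH3, vimentin (VIM), and the transcription factors SNAI1, SNAI2, TWIST1, ZEB1, ZEB2 and GRHL2. They were listed by name, with no threshold on their values, by choices made with earlier results of these data known, and were found by Ensembl identifier among the 48804 genes of the raw count table. MDA-MB-468 is an established epithelial cell line of triple-negative breast cancer. The cells received PBS (control), 0.5 μM salinomycin (Sal), a potassium ionophore, 15 μM dasatinib (Das), an inhibitor of SRC-family and ABL kinases, or Sal and Das together, each at the dose given (S + D), for 24 h or 72 h. Each of the 8 groups had 4 libraries of bulk RNA-seq from biological replicates, 32 in all. Of the 4 libraries of a group, 3 carry a replicate number and 1 carries none in its label. All treated groups of a time point share its control libraries, and the cells of every group are of this 1 line.

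In EMT, epithelial cells loosen their junctions and take on a motile, mesenchymal form. E-cadherin (CDH1) and P-cadherin (CDH3) hold neighbouring epithelial cells together and are tied to actin through catenins, whereas N-cadherin (CDH2) replaces them in mesenchymal cells, which are filled with the intermediate filament protein vimentin. The zinc-finger proteins SNAI1, SNAI2, ZEB1 and ZEB2 and the helix-loop-helix protein TWIST1 are known as repressors of CDH1 and of other epithelial genes, and bind variants of the E-box. GRHL2 is a Grainyhead factor that keeps epithelial genes active and opposes ZEB1. Basal-like breast cancer lines such as MDA-MB-468 are known for abundant CDH3.

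The libraries held from 25692561 to 42769687 counts (median 33301486.5). The unnumbered libraries deviated together from their groups, so values from the numbered libraries alone are given where they change a call, and replicate 3 of Das at 72 h lay closer to the control than the other Das libraries in CDH3, VIM and GRHL2. The epithelial markers EPCAM, KRT7, KRT8, KRT18, KRT19 and CDH1 were all present, and their summed level was 6220 to 7000 CPM (reads scaled to library size with the TMM factors of edgeR) in the 72 h control, 2590 to 3980 with Sal, 3720 to 5080 with Das and 2470 to 3030 with S + D. The lower sums were those of keratins (KRT8 -1.73 and KRT19 -1.62 with Sal on the log2 scale), while EPCAM was between -0.26 and -0.19 and not called. The part of this in the results that follow was not tested. The epidermal growth factor receptor EGFR, abundant in this line, had a mean of 4670 CPM, the progesterone receptor PGR had at most 3 reads in a library, and SMAD4, which this line is known to lack, had a mean of 0.267 CPM. Of the leucocyte markers, the defining PTPRC and CD3E had at most 5 reads in any library, and the sum of the list (CD14 for the most part) was 26.7 to 34.2 CPM in the 72 h control and 2.64 to 18.0 CPM in the treated libraries. In bulk RNA, fewer cells with a transcript and less of it per cell cannot be told apart.

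VIM and ZEB1, both on chromosome 10, were higher with Sal and S + D at 72 h. The RefSeq promoter windows of 300 bases (250 before and 50 after an annotated start, GRCh38.p14) are shown for these 2 genes, since E-boxes are the letters that the SNAI and ZEB proteins bind. Entries were matched for 4 of the 10 genes (CDH2, VIM, ZEB1 and ZEB2). No entry was matched for CDH1, CDH3, SNAI1, SNAI2, TWIST1 or GRHL2. Of the windows of ZEB1, the 2 that held the form of the E-box read by SNAI and ZEB factors (CAGGTG, or CACCTG on the other strand) are printed, with it in capitals. All 3 windows are on the plus strand, at chr10:17227991-17228290 for VIM, chr10:31318167-31318466 for ZEB1 window A and chr10:31318966-31319265 for ZEB1 window B.
VIM: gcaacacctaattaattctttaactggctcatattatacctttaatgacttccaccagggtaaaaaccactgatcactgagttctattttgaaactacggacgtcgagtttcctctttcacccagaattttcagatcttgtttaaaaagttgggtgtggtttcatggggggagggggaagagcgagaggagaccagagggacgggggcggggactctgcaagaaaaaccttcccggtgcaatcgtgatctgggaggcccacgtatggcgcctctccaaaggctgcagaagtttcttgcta
ZEB1 window A: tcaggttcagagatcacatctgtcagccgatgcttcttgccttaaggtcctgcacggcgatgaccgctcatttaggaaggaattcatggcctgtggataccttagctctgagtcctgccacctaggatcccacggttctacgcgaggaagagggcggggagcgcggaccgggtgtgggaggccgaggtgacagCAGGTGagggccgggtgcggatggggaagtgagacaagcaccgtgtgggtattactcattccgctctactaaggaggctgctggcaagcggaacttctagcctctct
ZEB1 window B: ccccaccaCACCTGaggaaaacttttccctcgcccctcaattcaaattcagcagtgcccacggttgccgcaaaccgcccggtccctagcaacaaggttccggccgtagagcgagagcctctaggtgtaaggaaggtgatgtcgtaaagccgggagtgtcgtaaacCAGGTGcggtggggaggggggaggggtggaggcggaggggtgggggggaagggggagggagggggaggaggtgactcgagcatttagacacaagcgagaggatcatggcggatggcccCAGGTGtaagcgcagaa

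ZEB1 window B held 3 matches, at bases -242, -85 and 34 from the start (counted for the first base of the match), and ZEB1 window A held 1 at -57. The further ZEB1 windows, which begin at chr10 bases 31318568, 31319518, 31320304, 31320951 and 31321410, held neither CAGGTG nor CACCTG. The VIM window held none of the forms searched. Any E-box (CANNTG, both strands, which includes the former) was in 68.7% of the 34796 RefSeq windows of this length, CAGGTG or CACCTG in 20.6%, and the Grainyhead form AACCGGTT in 0.1% (46 windows). The Grainyhead form was in no window of the 4 genes. These matches are letters in a window, and no binding was measured.

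Levels per kilobase of merged exons set the 10 transcripts far apart. This length joins all annotated exons of a gene and can exceed that of the transcript present. The order between genes, and where 2 genes overlap, therefore depends on it. Over all 32 libraries the mean was 44.6 CPM per kb for CDH1, 16.3 for GRHL2, 9.08 for CDH3, 7.83 for VIM and 1.78 for SNAI1. TWIST1 (0.0548), ZEB1 (0.0472) and CDH2 (0.00443) were lower by far, and SNAI2 and ZEB2 had no read in any library. CDH1 was the highest member in every one of the 32 libraries, and SNAI1 lay above ZEB1 in every one. TWIST1 and ZEB1, neighbours in this order, overlapped in each group. The place of VIM changed with treatment. In the 72 h control, VIM lay between 5.61 and 7.59 CPM per kb, below CDH3 (16.1 to 17.5) and GRHL2 (18.8 to 21.1) in 4 of 4 libraries. With S + D for 72 h, VIM lay between 17.5 and 23.4 CPM per kb, above CDH3 (4.19 to 4.71) and GRHL2 (7.39 to 9.37) in 4 of 4 libraries. With Sal for 72 h, VIM passed CDH3 in 4 of 4 libraries and overlapped GRHL2 (10.4 to 11.7 against 10.2 to 11.8 CPM per kb). With Das for 72 h it passed CDH3 in 3 of 4, replicate 3 being the exception.

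**Figure D1:**
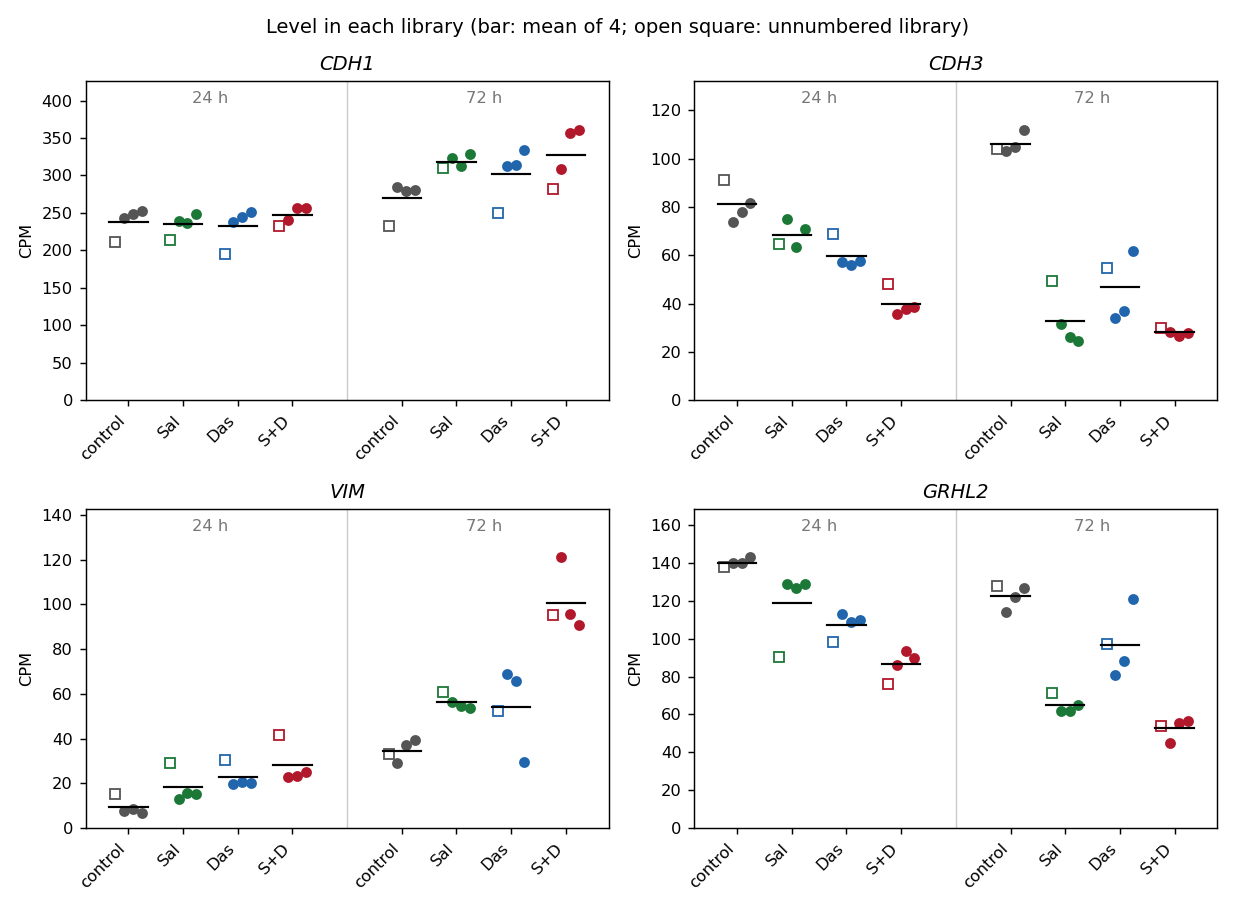
CPM of CDH1, CDH3, VIM and GRHL2 in each of the 32 libraries (y axis, from 0), by treatment and time (x axis). Points are single libraries, open squares the unnumbered ones, and black bars the means of 4. CDH3 and GRHL2 fell and VIM rose with S + D at both times, while CDH1 stayed between 195 and 361 CPM in all libraries.

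Of the 10 genes, 6 passed the filter on low counts at both times (CDH1, CDH3, VIM, SNAI1, ZEB1 and GRHL2) and entered edgeR's quasi-likelihood test. ZEB1 passed at 72 h through the Sal and S + D groups, where it was high, so its passing and its difference there are not independent. SNAI2, ZEB2, CDH2 and TWIST1 did not pass. A gene was called at an edgeR adjusted p under 0.01, with Benjamini-Hochberg adjustment over all genes tested. With Sal at 24 h, 0 of the 6 were called by edgeR and by DESeq2, and 3 had an unadjusted p under 0.05. Neither of these fits had a term for the unnumbered libraries. VIM was called by edgeR with such a term, with a replicate block and in the numbered libraries (edgeR adjusted p from 3.19e-07 to 2.62e-06). GRHL2 was called with that term. In that comparison 4.55% of all genes tested were called higher and 2.23% lower. With Das at 24 h, VIM was higher and CDH3 lower, where 6.99% of all genes were called higher and 6.88% lower. With S + D at 24 h, VIM was higher and CDH3 and GRHL2 lower, against 17.1% higher and 16.5% lower of all genes.

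At 72 h more of the transcriptome had moved. With Sal, VIM and ZEB1 were higher and CDH3 and GRHL2 lower, and of all genes 26.3% were called higher and 26.8% lower. Das at 72 h lowered CDH3, the 1 call among the 6 by edgeR, where DESeq2 also called VIM higher (DESeq2 adjusted p = 0.00799). That comparison called 10.5% of all genes higher and 9.36% lower. S + D moved the 4 genes that Sal moved, each in the direction seen with Sal, beside 27.0% higher and 27.9% lower of all genes. With so large a part of all tested genes called under Sal and S + D at 72 h, 4 of 6 is a share near that of the table as a whole. CDH1 and SNAI1 were called in none of the 6 comparisons with control, by edgeR or by DESeq2.

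**Figure D2:**
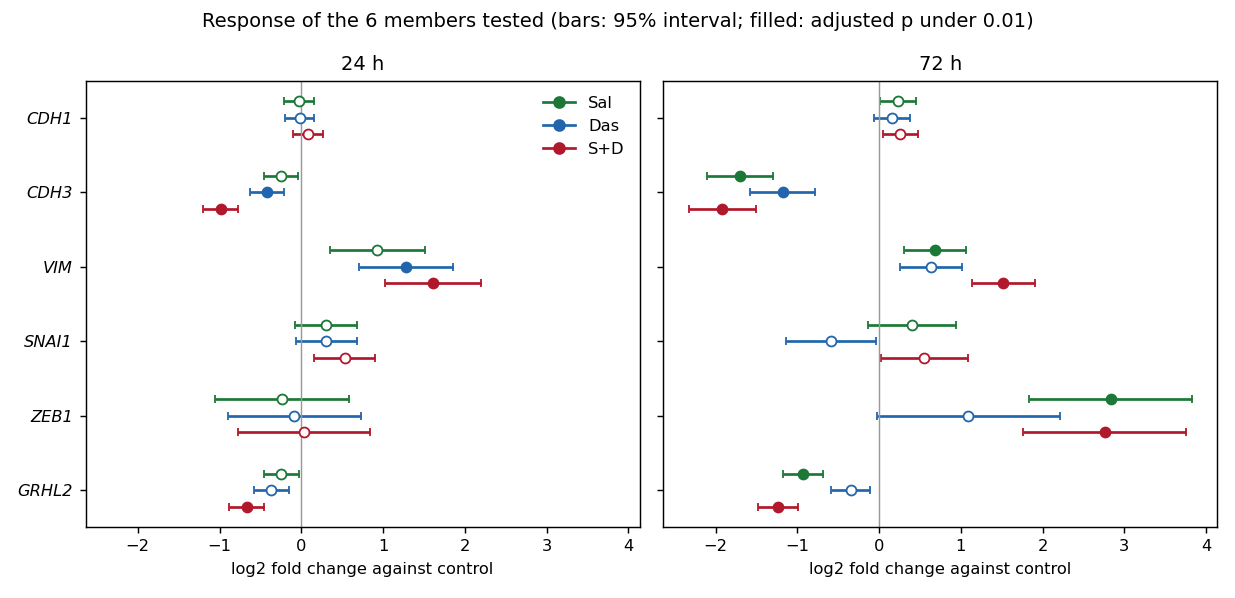
Log2 fold change against the control of the same time (x axis) of the 6 genes tested (y axis), for Sal, Das and S + D at 24 h (left) and 72 h (right). Bars are 95% intervals that assume a normal error, and filled points have an edgeR adjusted p under 0.01. CDH3 lies left of 0 in all comparisons and furthest at 72 h with S + D (-1.92), and ZEB1 lies right of 2.7 at 72 h with Sal and S + D.

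CDH3 (ENSG00000062038, GRCh37 chr16:68670092-68761371, plus strand), the P-cadherin of basal epithelium, fell most steadily. In the order unnumbered, 1, 2 and 3, the 24 h control libraries were at 91.2, 73.6, 78.1 and 81.6 CPM. The S + D libraries of 24 h were at 48.1, 35.7, 37.7 and 38.7 CPM, all below every control. At 24 h the mean was 81.1 ± 7.47 CPM (SD, n = 4) in the control, 68.6 ± 5.55 after Sal, 59.9 ± 6.10 after Das and 40.1 ± 5.49 after S + D. S + D halved the level (log2 fold change -0.98, SE 0.11, edgeR adjusted p = 2.49e-06). Das lowered it by less (log2 fold change -0.42, SE 0.11, edgeR adjusted p = 0.00973). That call was lost without any 1 of 7 of the 8 libraries (all 4 controls and the numbered Das libraries), with edgeR adjusted p from 0.0126 to 0.0381. Sal at 24 h gave a log2 fold change of -0.25 (SE 0.11, edgeR adjusted p = 0.135).

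By 72 h the CDH3 controls stood at 104, 103, 105 and 112 CPM. The Sal libraries were at 49.5, 31.4, 26.4 and 24.6 CPM, the Das libraries at 54.9, 34.2, 36.9 and 62.0 CPM, and the S + D libraries at 30.1, 28.4, 26.8 and 28.0 CPM. No treated library reached the lowest control, and the 4 S + D libraries were the most alike. The log2 fold change was -1.70 (SE 0.21, edgeR adjusted p = 1.8e-06) with Sal, a level 0.308 times that of the control. It was -1.18 (SE 0.20, edgeR adjusted p = 0.000344) with Das and -1.92 (SE 0.21, edgeR adjusted p = 4.68e-07) with S + D, or 0.442 and 0.264 times the control. All 3 calls held without each of the 8 libraries compared. CDH3-AS1, whose exons overlap 8.4% of the exon bases of CDH3 on the other strand, had at most 8 reads in a library, against at least 696 for CDH3.

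GRHL2 (ENSG00000083307), the Grainyhead factor of epithelial cells, also fell. Its 24 h controls were at 138, 140, 140 and 143 CPM and its S + D libraries at 76.1, 86.2, 93.3 and 90.1 CPM. Sal at 24 h gave 90.6 CPM in the unnumbered library but 129, 127 and 129 in the others. The S + D libraries lay well under the controls (log2 fold change -0.67, SE 0.11, edgeR adjusted p = 0.000136), and single drugs did not pass (Sal -0.25, SE 0.11, edgeR adjusted p = 0.151; Das -0.37, SE 0.11, edgeR adjusted p = 0.0227). Das at 24 h passed in the numbered libraries (log2 fold change -0.32, edgeR adjusted p = 1.22e-05), with the replicate block (0.00122), with a term for the unnumbered libraries (0.000363), in only the groups compared (0.00424) and by DESeq2 (DESeq2 adjusted p = 0.0051). With that term Sal at 24 h passed as well (-0.26, edgeR adjusted p = 0.00878). At 72 h the controls were at 128, 114, 122 and 127 CPM, the Sal libraries at 71.3, 62.0, 62.0 and 65.1, and the S + D libraries at 53.8, 44.7, 55.7 and 56.7. These 3 groups did not overlap. The Das libraries of 72 h were at 97.2, 80.6, 88.2 and 121 CPM, the last (replicate 3) within the control range. The log2 fold change was -0.93 (SE 0.12, edgeR adjusted p = 4.1e-06) with Sal and -1.24 (SE 0.12, edgeR adjusted p = 2.01e-07) with S + D. With Das it was -0.35 (SE 0.12, edgeR adjusted p = 0.0333) with all libraries and -0.46 (edgeR adjusted p = 0.00213) without replicate 3, and it was called with the replicate block (-0.36, edgeR adjusted p = 0.00512). A lncRNA gene on the other strand, ENSG00000254024, overlaps 0.8% of the exon bases of GRHL2. It had a mean of 57.8 reads in the 72 h control, 9.25 after Sal, 30.5 after Das and 6.25 after S + D.

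VIM (ENSG00000026025, GRCh37 chr10:17270240-17279592, plus strand), the vimentin gene, rose. The 24 h controls were at 15.0, 7.68, 8.36 and 6.55 CPM, the Das libraries at 30.4, 19.5, 20.4 and 20.3, and the S + D libraries at 41.7, 22.8, 23.1 and 25.1. In each group the first value, of the unnumbered library, was the highest, and the Das and S + D libraries all exceeded every control. Sal at 24 h gave 29.1, 12.9, 15.6 and 15.0 CPM, overlapping the controls through the unnumbered control. The log2 fold change was 1.28 (SE 0.30, edgeR adjusted p = 0.0046) with Das and 1.61 (SE 0.30, edgeR adjusted p = 0.000353) with S + D. The Das call was lost without control replicate 1 (edgeR adjusted p = 0.0199), 2 (0.0189) or 3 (0.0205) or the unnumbered Das library (0.0153). With Sal the log2 fold change of 0.93 (SE 0.29) had an edgeR adjusted p of 0.044 over all libraries and of 3.19e-07 in the numbered ones, where it was 0.95.

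At 72 h VIM had risen in the untreated cells too. The controls were at 33.1, 29.0, 37.0 and 39.3 CPM, a log2 fold change of 1.88 over the 24 h control (SE 0.27, edgeR adjusted p = 6.29e-05), in a comparison that called 2.0% of all genes higher. Above that, the Sal libraries stood at 60.8, 56.3, 54.4 and 53.8 CPM, and the S + D libraries at 95.3, 121, 95.8 and 90.6. The Das libraries were at 52.3, 69.0, 65.7 and 29.4 CPM. All Sal and S + D libraries exceeded every control, and 3 of 4 Das libraries did. S + D gave a log2 fold change of 1.52 (SE 0.20, edgeR adjusted p = 3.08e-06), or 2.87 times the control, which held without each library. Sal gave 0.68 (SE 0.19, edgeR adjusted p = 0.00495), not called in the numbered libraries (0.62, edgeR adjusted p = 0.0329) nor without the unnumbered control (0.0136), control replicate 1 (0.0205), the unnumbered Sal library (0.0121) or Sal replicate 1 (0.0114). Das gave 0.64 (SE 0.19, edgeR adjusted p = 0.0174), and 0.86 (edgeR adjusted p = 8.71e-05) without replicate 3. It was also called with no filter on low counts (0.65, edgeR adjusted p = 0.00676).

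Reads of VIM-AS1 and of COL1A1 were also higher in the treated groups of 72 h. VIM-AS1, the antisense gene whose exons with those of a further gene cover 24.6% of the exon bases of VIM, had a mean of 28.5 reads in the 72 h control, 216 after Sal, 104 after Das and 330 after S + D. VIM itself had from 867 to 3784 reads in the libraries of 72 h. Whether reads were assigned by strand is not given in the sources used here, and without strand reads of the 2 genes cannot be told apart. Of the 8 fibroblast markers, the summed level was 24.7 to 33.1 CPM in the 72 h control, 55.6 to 78.2 with Sal, 34.0 to 68.9 with Das and 68.8 to 122 with S + D, nearly all of it COL1A1. PDGFRA, of the same list, fell with Sal (log2 fold change -3.41, edgeR adjusted p = 9.26e-05) and S + D (-4.34, 1.86e-05). PDGFRB, also of that list, rose with S + D (2.41, edgeR adjusted p = 0.00621) and was not called with Sal (0.78) or Das (0.69). Both had few reads, with means over the 32 libraries of 0.298 CPM for PDGFRA and 0.373 CPM for PDGFRB. PDGFRB may have passed the filter through the S + D group, and its passing and its difference may then not be independent. COL1A2, COL3A1, DCN, LUM and THY1, which define that cell type, had at most 5 reads in any library. The part of VIM-AS1 and of these markers in the rise of VIM was not tested.

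CDH1 (ENSG00000039068, GRCh37 chr16:68771195-68869440, plus strand), E-cadherin, was not called in any comparison with control. The mean was 239 ± 18.5 CPM in the 24 h control (SD, n = 4), 235 ± 14.9 after Sal, 232 ± 25.4 after Das and 247 ± 11.5 after S + D. At 24 h the log2 fold changes were within -0.03 and 0.08, with 95% intervals inside -0.21 to 0.26. At 72 h the controls were at 233, 284, 279 and 281 CPM, the Sal libraries at 310, 323, 313 and 328, the Das libraries at 250, 312, 314 and 334, and the S + D libraries at 282, 308, 357 and 361. The means were higher than the control under each treatment, the lowest control being the unnumbered one. The log2 fold change was 0.23 (95% interval 0.01 to 0.45, edgeR adjusted p = 0.0869) with Sal, 0.16 (-0.06 to 0.38, 0.289) with Das and 0.26 (0.05 to 0.48, 0.0462) with S + D. None of these 3 passed. The intervals assume a normal error and are narrower than the edgeR test gives. With Sal the unadjusted edgeR p was 0.0595, though its interval holds only gains. The lowest limit was -0.06, with Das, and a loss somewhat beyond it is not excluded. With a term for the unnumbered libraries, S + D passed at the same size (0.26, edgeR adjusted p = 0.00717). CDH3, whose gene lies next to CDH1 on chromosome 16, was lower than every control in the S + D libraries of 72 h, and CDH1 was not.

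ZEB1 (ENSG00000148516, GRCh37 chr10:31607424-31818742, plus strand), a repressor of CDH1 in EMT, was detected at few reads. In the 72 h control it had 7, 1, 0 and 8 reads. In the Sal libraries it had 25, 27, 28 and 24, in the Das libraries 5, 8, 10 and 9, and in the S + D libraries 27, 23, 29 and 31. The Sal and S + D libraries all exceeded every control, and the Das libraries overlapped them. In CPM, the means were 0.111 ± 0.111 in the control (SD, n = 4), 0.840 ± 0.143 after Sal, 0.252 ± 0.0977 after Das and 0.794 ± 0.0873 after S + D. The log2 fold change was 2.83 (SE 0.51, edgeR adjusted p = 0.000108) with Sal and 2.76 (SE 0.51, edgeR adjusted p = 0.000131) with S + D, both called without each library. With Das it was 1.09 (SE 0.57, edgeR adjusted p = 0.151). ZEB1 passed the filter at 72 h through the Sal and S + D groups, so its passing and their differences are not independent. At 24 h the reads ran from 4 to 20 per library with means of 0.334, 0.285, 0.316 and 0.333 CPM for control, Sal, Das and S + D, and no comparison was called by edgeR or DESeq2. ZEB1-AS1, which overlaps 4.6% of the exon bases of ZEB1 on the other strand, had more reads than ZEB1, from 80 to 268 per library. Its 72 h means were 122 reads in the control, 172 after Sal, 148 after Das and 213 after S + D. Its part in the reads of ZEB1 was not tested.

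SNAI1 (ENSG00000124216, GRCh37 chr20:48599517-48605423, plus strand), the Snail repressor, was the most abundant of the 5 EMT-driving factors. At 72 h its controls were at 1.45, 3.38, 3.33 and 4.11 CPM, the Sal libraries at 5.21, 4.73, 2.95 and 3.51, the Das libraries at 2.84, 2.11, 1.72 and 1.49, and the S + D libraries at 4.12, 4.38, 5.26 and 4.44. The S + D libraries lay just above every control and above every Das library. Against the control, the log2 fold change was 0.40 (SE 0.28, edgeR adjusted p = 0.211) with Sal, -0.59 (SE 0.28, edgeR adjusted p = 0.116) with Das and 0.55 (SE 0.27, edgeR adjusted p = 0.0853) with S + D. In the numbered libraries, where the unnumbered control at 1.45 CPM is absent, the value with Das was -1.03 (edgeR adjusted p = 0.00225). At 24 h the means were 2.18 ± 0.533, 2.69 ± 0.591, 2.65 ± 0.260 and 3.06 ± 0.340 CPM for control, Sal, Das and S + D (SD, n = 4), and the largest log2 fold change was 0.53 with S + D (SE 0.19, edgeR adjusted p = 0.0339).

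TWIST1 (ENSG00000122691, GRCh37 chr7:19060614-19157259, minus strand), a helix-loop-helix factor of mesoderm, had at most 10 reads in a library. At 72 h the controls had 2, 1, 2 and 0 reads, the Sal libraries 10, 3, 9 and 8, the Das libraries 8, 4, 2 and 1, and the S + D libraries 9, 9, 7 and 5. Each Sal and S + D library exceeded every control. The ratio of summed reads over depth was 6.69 with Sal (95% counting interval 2.57 to 22.1) and 6.09 with S + D (2.34 to 20.1). The intervals cover counting error only. An exact two-sided permutation test over the libraries gave p = 0.0286 for each, the smallest p that 4 libraries against 4 allow, and 0.172 after Benjamini-Hochberg adjustment over the 12 comparisons of TWIST1 and CDH2. With Das the ratio was 3.17 (1.10 to 11.2, exact permutation p = 0.143). At 24 h the group sums were 8, 9, 10 and 13 reads for control, Sal, Das and S + D, and no adjusted permutation p of TWIST1 was under 0.172 at either time. In the edgeR fit with no filter on low counts, TWIST1 was called at 72 h with Sal (edgeR adjusted p = 0.00273) and S + D (0.00373) and not with Das (0.187).

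CDH2 (ENSG00000170558, GRCh37 chr18:25512843-25757910, minus strand), N-cadherin, had from 0 to 5 reads per library and none in 11 of the 32. Its group sums at 24 h were 10 reads in the control, 9 after Sal, 5 after Das and 3 after S + D, and at 72 h 7, 1, 4 and 2. The exact permutation test gave no p under 0.0571, or 0.228 adjusted. At this depth no gain of N-cadherin reads was seen with the loss of CDH3, and group sums of this size cannot show a modest change. SNAI2, known as Slug, and ZEB2 had 0 of the 1085156839 reads of the 32 libraries, which allows up to 0.00276 CPM for each (3 reads of that total). Of the 19391 protein-coding genes in the table, 2407 (12.4%) had no read in any library.

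**Figure D3:**
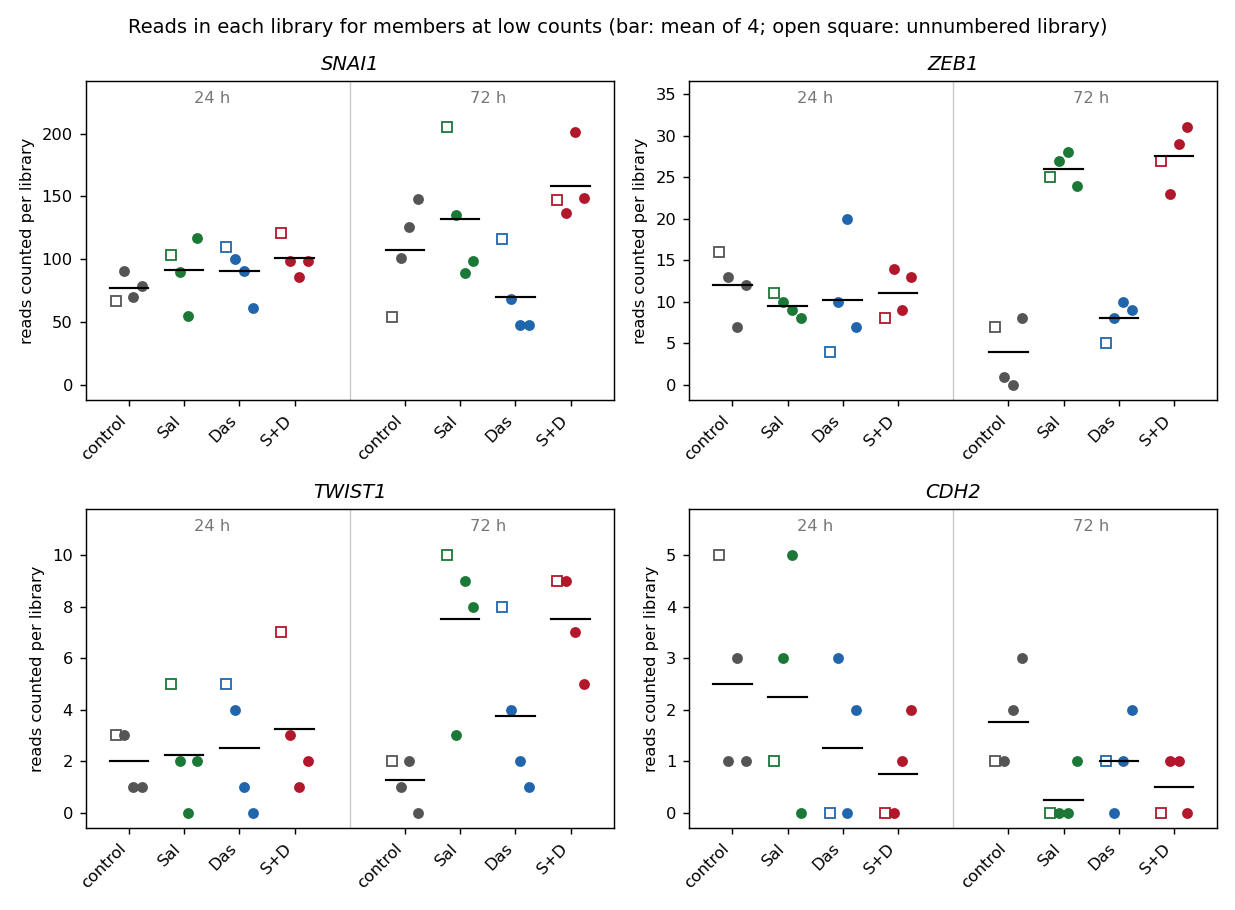
Reads counted per library (y axis) for SNAI1, ZEB1, TWIST1 and CDH2, by treatment and time (x axis). Points are single libraries, open squares the unnumbered ones, and black bars the means of 4. ZEB1 had 23 to 31 reads in the Sal and S + D libraries of 72 h and 0 to 8 in the controls of that time, and CDH2 never exceeded 5 reads.

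Next the combination was compared with each drug alone. At 24 h S + D lay below Sal in CDH3 (log2 fold change -0.73, SE 0.11, edgeR adjusted p = 0.000149), in a comparison that called 7.06% of all genes lower. S + D also lay below Das in CDH3 (-0.57, SE 0.11, edgeR adjusted p = 0.00217, and 0.011 without S + D replicate 1), against 4.46% of all genes. GRHL2 was lower with S + D than with Sal by -0.42 (SE 0.11, edgeR adjusted p = 0.0116), by -0.51 (3.95e-08) in the numbered libraries, and was called without the unnumbered Sal library (5.49e-05). With no library left out, GRHL2 was called with RLE size factors (edgeR adjusted p = 0.00627), the replicate block (0.000588) and a term for the unnumbered libraries (0.000157). It was also called in the fit of all 32 libraries (edgeR adjusted p = 0.00347) and by DESeq2 (DESeq2 adjusted p = 0.000644). VIM was higher with S + D than with Sal by 0.68 (edgeR adjusted p = 0.102), and by 0.71 (1.37e-06) in the numbered libraries. Against Das, GRHL2 was at -0.30 (edgeR adjusted p = 0.0738), and at -0.32 (2.51e-05) in the numbered libraries. At 72 h S + D and Sal differed in 0 of the 6 genes by edgeR, with 2 at an unadjusted p under 0.05 and 1 called by DESeq2, where 3.01% of all genes were called. That gene was VIM, higher with S + D by 0.84 (SE 0.19, 95% interval 0.46 to 1.22, edgeR adjusted p = 0.0121). By edgeR it was called with the replicate block (0.83, edgeR adjusted p = 0.00574), a term for the unnumbered libraries (0.84, 0.00512), no filter (0.86, 0.00168) and only the groups compared (0.85, 0.00126). For ZEB1 the difference was -0.07 (95% interval -0.87 to 0.73), and for CDH3 it was -0.22 (-0.62 to 0.18).

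Against Das at 72 h, S + D differed in 5 of the 6. VIM (0.89, SE 0.19, edgeR adjusted p = 0.00124), SNAI1 (1.14, SE 0.28, 0.00316) and ZEB1 (1.67, SE 0.46, 0.00684) were higher, where 14.3% of all genes were called higher. CDH3 (-0.74, SE 0.20, edgeR adjusted p = 0.00642) and GRHL2 (-0.88, SE 0.12, 2.41e-05) were lower, as were 17.7% of all genes. VIM and GRHL2 held without each library. CDH3 was lost without any S + D library, the unnumbered Das library or Das replicate 3 (edgeR adjusted p from 0.0123 to 0.0335). ZEB1 was lost in the numbered libraries (1.43, 0.0183) and without any 1 library but Das replicate 2 (0.0109 to 0.02), and SNAI1 without Das replicate 3 (0.0106) or S + D replicate 2 (0.0107). As ZEB1 passed the filter at 72 h through groups that include S + D, its passing and its difference here are not independent.

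The interaction of Sal and Das, which is 0 on the log2 scale where the response to S + D equals the sum of the single responses, was called in 0 of the 6 genes at either time by edgeR. At 24 h, 0 had an unadjusted p under 0.05 and DESeq2 called 0, in a comparison that called 0.0306% of all genes. At 72 h, 1 had an unadjusted p under 0.05 and DESeq2 called 1, where 7.52% of all genes were called. In the numbered libraries of 24 h the interaction was -0.73 for VIM (edgeR adjusted p = 0.00082) and -0.49 for CDH3 (0.00185). The gene called by DESeq2 at 72 h was CDH3, with an interaction of 0.96 (SE 0.29, edgeR adjusted p = 0.0264), a fall under S + D smaller than the sum of the single falls. It passed without the unnumbered Sal library (edgeR adjusted p = 0.00191) or Das replicate 3 (0.00575). By edgeR it was also called with no filter (0.97, edgeR adjusted p = 0.00967) and with the replicate block (1.02, 0.00553). The same held with a term for the unnumbered libraries (1.00, edgeR adjusted p = 0.00498) and in all 32 libraries (0.95, 0.00449). In the numbered libraries it was 1.28 (edgeR adjusted p = 0.00343), and that of SNAI1 was 1.37 (0.00454).

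The responses at 72 h were also set against those at 24 h, in a fit of all 32 libraries. The response to Sal was further down for CDH3 (-1.44, SE 0.24, edgeR adjusted p = 3.67e-05) and GRHL2 (-0.68, SE 0.16, 0.00144), where 13.7% of all genes were called lower, and further up for ZEB1 (3.07, SE 0.68, 0.000832), where 8.21% were called higher. For S + D, CDH3 was further down by -0.89 (SE 0.24, edgeR adjusted p = 0.00605), beside 10.1% of all genes, and ZEB1 further up by 2.78 (SE 0.67, 0.00264), beside 6.15%. Both ZEB1 values include a lower control at 72 h, at a mean of 0.111 CPM against 0.334 CPM at 24 h. That change of the control was -1.53 on the log2 scale (SE 0.52, edgeR adjusted p = 0.0705), not called. The CDH3 value for S + D lost its call in 9 of the 16 fits that left out 1 library (edgeR adjusted p from 0.01 to 0.0132), those without a numbered 24 h control, the unnumbered S + D library of 24 h, control replicate 2 or 3 of 72 h or a numbered S + D library of 72 h. The response to Das differed between the times in 0 of the 6 genes by edgeR and by DESeq2, with 2 at an unadjusted p under 0.05 and 0.226% of all genes called. In the numbered libraries that of SNAI1 was -1.21 (edgeR adjusted p = 0.00996). GRHL2 under S + D was at -0.52 (edgeR adjusted p = 0.0144), at -0.56 (0.0042) in the numbered libraries, and at an edgeR adjusted p of 0.0067 without the unnumbered S + D library of 24 h. For VIM, the difference between the times was -0.24 (SE 0.37) for Sal, -0.62 (SE 0.37) for Das and -0.04 (SE 0.36) for S + D, none called.

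By likeness over the 32 libraries (Pearson correlation of log2 CPM, among 13726 genes with a mean of at least 1 CPM), CDH3 was nearest to B4GALT2 (r = 0.982), ECE1 (0.98) and IER3 (0.97). GRHL2 was nearest to CRYBG1 (0.988), ANLN (0.98) and FAM111B (0.978). VIM was nearest to TMC4 (0.959), LRRC23 (0.933) and CERCAM (0.931), CDH1 to SNX18 (0.931), FTO (0.919) and PTK2 (0.911), and SNAI1 only loosely to HCFC1R1 (0.783), ZER1 (0.782) and SIRT3 (0.773). The libraries share treatments, times and the unnumbered set, so these values describe a shared pattern over 8 groups.

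The neighbouring pathway genes were taken from lists. Of the 6 cadherin-catenin partners, 5 were tested. At 72 h 4 fell with Sal (median log2 fold change -1.21, beside 0.00 for all genes), 3 with Das (-0.52 beside 0.02) and 3 with S + D (-1.23 beside 0.01), and none rose. CTNNB1, β-catenin, went from 527 ± 57.4 CPM in the control (SD, n = 4) to 159 ± 44.3 with Sal (log2 fold change -1.74, edgeR adjusted p = 3.33e-07), 253 ± 46.0 with Das and 150 ± 24.8 with S + D (-1.83, 1.7e-07). VCL, vinculin, and JUP, plakoglobin, fell by 1.23 each with S + D. Of 7 other classical cadherins, 3 were tested at 72 h. CDH24 fell with Sal (-1.38, edgeR adjusted p = 5.45e-05) and S + D (-0.94, 0.00158), and CDH5, at a mean of 0.273 CPM in the control, fell with Sal (-3.01, 0.00131). CDH15, the M-cadherin of muscle, had 1 read in all 4 controls, 80 in the Sal libraries (15 to 24 each, ratio 89.2, 95% counting interval 15.6 to 3570) and 66 in the S + D libraries (8 to 23 each, ratio 67.0, 11.6 to 2690). It passed the filter at 72 h through these groups, where it was high, so its passing and its difference are not independent, and the intervals cover counting error only.

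Junction genes split. Of 12 tight junction genes, all tested, 2 rose and 2 fell with Sal at 72 h, 3 rose and 4 fell with S + D, and medians lay between -0.14 and 0.01. The claudin CLDN3 (1.15 with Sal and 0.99 with S + D) and the scaffold TJP1 (1.10 and 0.91) rose with both, and CLDN1 rose with S + D (0.93, edgeR adjusted p = 7.46e-05). Among the falls were MARVELD3 and TJP3 with both and CLDN4 with S + D (named after their values were seen). Of 9 desmosome genes, 8 were tested, and 2 fell with Sal and with S + D, both of them desmocollins. That is a share near that of all genes called lower. DSC3 fell by 1.98 and DSC2 by 1.51 with S + D on the log2 scale, and PKP2, a plakophilin, was the 1 that fell with Das (-0.38, edgeR adjusted p = 0.00413). Of 12 epithelial regulators and surface genes, Sal raised 4 and lowered 6, Das lowered 3, and S + D raised 1 and lowered 4. GRHL3, a relative of GRHL2, fell with all treatments (-1.28 after Sal, -1.28 after Das and -2.13 after S + D), and ST14, the matriptase gene, did so too (-1.15, -0.78 and -0.89). OVOL1, a zinc-finger factor known to oppose EMT, rose with Sal (2.01, edgeR adjusted p = 4.49e-07) and S + D (1.73, 1.78e-06). OVOL2, of the same list, fell with Sal (-0.80, edgeR adjusted p = 0.00102) and S + D (-1.01, 0.000128), and was named after its values were seen.

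Further lists held genes that promote or mark the mesenchymal state. Of 10 other EMT-promoting factors, 6 were tested, and 5 fell with Sal at 72 h (median -1.44), 2 with Das (-0.69) and 5 with S + D (-1.40), while none rose. FOXQ1, a forkhead factor, went from 39.9 ± 2.99 CPM in the control (SD, n = 4) to 2.22 ± 0.367 after Sal, 3.63 ± 1.03 after Das and 2.35 ± 0.581 after S + D (log2 fold changes of -4.18, -3.47 and -4.10 in this order). ZNF703, a zinc-finger factor, fell with Sal and S + D (-2.58 and -2.27). Of 10 TGF-beta ligands, receptors and SMADs, 6 fell with Sal (median -0.77), 4 fell and 1 rose with Das (-0.26) and 8 fell with S + D (-0.99). The ligands TGFB2 (-1.88) and TGFB3 (-2.03) and the signal carrier SMAD3 (-1.56) were the largest falls with S + D in that list.

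Of 14 mesenchymal genes, 11 were tested at 72 h. With Sal 1 rose and 6 fell (median -0.73), with Das 4 fell (-0.28), and with S + D 2 rose and 5 fell (-1.58). FN1, fibronectin, which rises in textbook EMT, fell with Sal (-3.46, SE 0.53, edgeR adjusted p = 2.12e-05) and S + D (-3.87, SE 0.54, 7.59e-06), from 149 ± 52.5 CPM in the control (SD, n = 4) to 13.6 ± 12.1 and 10.3 ± 4.52. NES, the intermediate filament protein nestin, fell with Sal (-4.31), Das (-2.88) and S + D (-3.51). MMP2, a matrix protease, did likewise (-2.49, -4.10 and -3.06). The riser was COL1A1, chosen after its values were seen, from 28.0 ± 4.54 CPM to 66.2 ± 12.0 with Sal (1.22, edgeR adjusted p = 8.1e-05) and 87.0 ± 22.7 with S + D (1.62, 4.37e-06). With S + D it was joined by PDGFRB (2.41, SE 0.71, edgeR adjusted p = 0.00621), a gene at a mean of 0.373 CPM over the 32 libraries. PDGFRB may have passed the filter through the S + D group, and its passing and its difference would then not be independent. VIM and COL1A1 thus rose in libraries in which FN1, NES and MMP2 fell. All lists were chosen with earlier results of these data known, and their counts stand beside the shares of all genes given above.

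**Figure D4:**
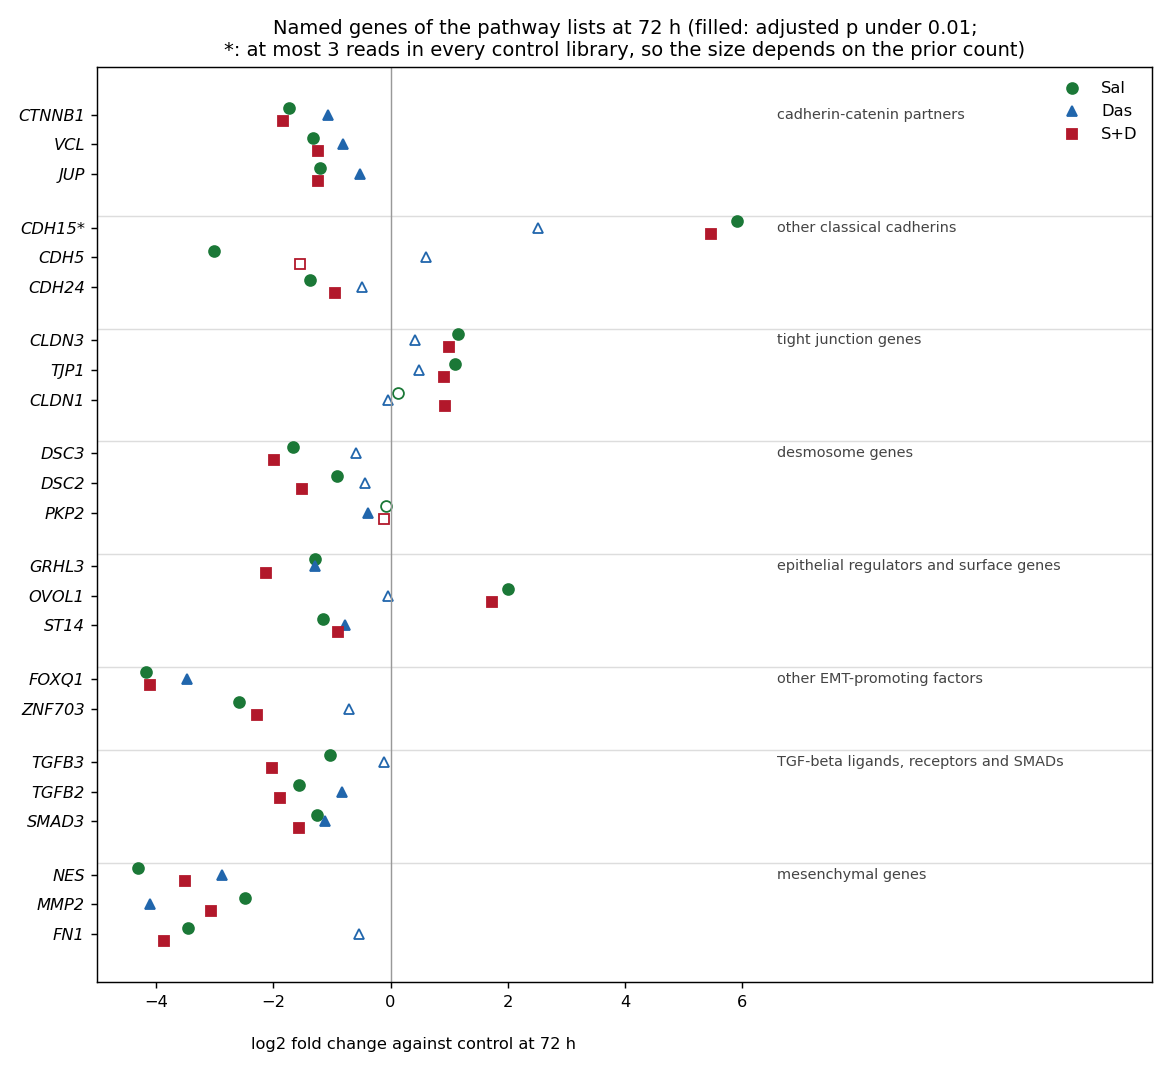
Log2 fold change against control at 72 h (x axis) of named genes of the 8 pathway lists (y axis), for Sal, Das and S + D. Filled marks have an edgeR adjusted p under 0.01, and the star marks CDH15, whose controls held 1 read in all. Most marks lie left of 0, with FOXQ1 and NES near -4 with Sal, while CDH15, CLDN3, TJP1 and OVOL1 lie right of 0 with Sal and S + D.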

How the data were processed

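RNA-seq was done on 32 libraries of MDA-MB-468 cells, 4 for each of 8 groups, which were taken from the labels. Per the paper's methods and the submitters' processing notes, reads were demultiplexed with bcl2fastq 2.19 and aligned to GRCh37 with STAR 2.5.2, and FPKM were computed with Cufflinks 2.1.1. The authors deposited raw counts of reads per Ensembl gene, without normalization; the counting program, its annotation and its use of strand are not given in the sources used here. FPKM values were not used. Symbols, coordinates and exon lengths came from GENCODE 44 on GRCh37, matched by 46537 of 48804 identifiers (0.64% of counts lay on the others).

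Counts were tested with edgeR 4.0.16 in R 4.3.3 (TMM factors, filterByExpr with a minimum count of 10, quasi-likelihood test, Benjamini-Hochberg adjustment over all genes), for the 16 libraries of a time point together (16357 genes at 24 h, 16682 at 72 h) and for all 32 (17227 genes) between times. An adjusted p under 0.01 was called. Levels are CPM with TMM factors. Genes under the filter were compared by an exact two-sided permutation test over libraries (SciPy). SEs were derived from the F statistic and 95% intervals assume a normal error, so they are narrower than the edgeR test gives.

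Named were the 10 genes, the 3 called genes of each list with the largest fold change at 72 h, and the 3 most correlated genes. Some of the list genes are not reported here. The members and lists were chosen with earlier results of these data known. Alternatives were RLE factors, no filter, a replicate block, the numbered libraries only, DESeq2 1.42.0, an adjusted p under 0.05, a further cutoff of 1.5 on the absolute log2 fold change, fits of all libraries or of only the groups compared, and each library left out. A term for the unnumbered libraries was added after seeing the data. The procedure was tested on data simulated for Sal against control at 72 h. There edgeR recovered 69 of 100 genes changed by 1 on the log2 scale, 98 of 100 changed by 2, and called 0 unchanged genes. Genes at low counts were not changed in it, and no shared deviation of the unnumbered libraries was simulated.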

Additional observations from a re-analysis of the deposited data

Results flagged for a closer look

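Of 48 sets of 4 libraries (6 genes in 8 groups), 9 held a library outside Dixon's 95% limit, which chance exceeds in about 1 of 20. Of these, 6 were unnumbered libraries. At 24 h VIM was far above its group in the unnumbered library with Sal (29.1 CPM), Das (30.4 CPM) and S + D (41.7 CPM), CDH3 was far above with Das (69.0 CPM) and GRHL2 was far below with Sal (90.6 CPM). At 72 h CDH1 was far below in the unnumbered control (233 CPM). The other 3 were VIM in replicate 1 of S + D at 72 h (121 CPM), ZEB1 in replicate 2 of the 24 h control (0.192 CPM) and ZEB1 in replicate 3 of S + D at 72 h (0.924 CPM).

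The response differed between 72 h and 24 h, by a test of that difference, in 5 of 18 cases. With Sal the log2 differences were -1.44 for CDH3 (edgeR adjusted p = 3.67e-05), -0.68 for GRHL2 (0.00144) and 3.07 for ZEB1 (0.000832). With S + D they were -0.89 for CDH3 (edgeR adjusted p = 0.00605) and 2.78 for ZEB1 (0.00264). The ZEB1 values include the lower mean of ZEB1 in the 72 h control than in the 24 h control.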

How the results depend on the processing

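No direction of a called value was reversed under any alternative. Of the 36 fold changes against control (6 genes, 3 treatments, 2 times), 14 were called. Under refits other than leaving out a library, these kept the call in 107 recomputed values and lost it in 5. The 22 not called stayed so in 161 and were called in 14. These numbers leave out the other thresholds, an adjusted p under 0.05 and the cutoff of 1.5. With that cutoff no call of GRHL2 and none with Das against control remained, and S + D at 72 h called 3. With 1 library left out, the called ones kept the call in 97 and lost it in 15, and the others stayed uncalled in 174 and were called in 2. In 12 recomputed values CDH1 or ZEB1 at 24 h, not called, crossed 0. CDH3 with Das at 24 h was lost with no filter (-0.43, edgeR adjusted p = 0.018), in all 32 libraries (-0.44, 0.0627) and in only the 2 groups (-0.41, 0.0125), and VIM with Sal at 72 h in all 32 (0.70, 0.0186). The cause of these changes was not tested. Genes with few reads (ZEB1, TWIST1 and CDH2) are limited by depth.

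The following give the number of the 6 genes called. (With no filter, TWIST1 was called besides, with Sal and S + D at 72 h.) At 24 h, Sal called 0, but 1 at an adjusted p under 0.05, 1 with a replicate block, 2 with a term for the unnumbered libraries and 1 in the numbered libraries. Das called 2, but 0 with the cutoff of 1.5, 1 with no filter and 1 in all 32 libraries. S + D called 3, and 1 with the cutoff. S + D against Sal called 1, but 2 at 0.05, with RLE, DESeq2 and all 32 libraries, 0 with the cutoff, and 3 with the replicate block, the term and the numbered libraries. S + D against Das called 1, but 0 with the cutoff, all 32 libraries or only the groups compared, and 2 with the replicate block, the term and the numbered libraries. The interaction called 0, but 1 with the term and 2 in the numbered libraries. At 72 h, Sal called 4, and 2 with the cutoff. Das called 1, but 3 at 0.05, 0 with the cutoff, and 2 with no filter, the replicate block, the numbered libraries and DESeq2. S + D against Sal called 0, but 1 at 0.05, with no filter, the replicate block, the term, DESeq2 and only the groups compared. S + D against Das called 5, and 1 with the cutoff. The interaction called 0, but 1 at 0.05, with no filter, the replicate block, the term, DESeq2 and all 32 libraries, and 2 in the numbered libraries. The control between times called 1, and 2 with only those groups. Between times, the response to Sal called 3 and 1 with the cutoff, that to Das 0 and 1 in the numbered libraries, and that to S + D 2 and 1 with the cutoff.

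With each library left out in turn, the number was 0 to 1 for Das at 24 h, 1 to 2 for S + D against Sal and 0 to 1 for S + D against Das at 24 h, 3 to 4 for Sal and 1 to 3 for Das at 72 h, 2 to 5 for S + D against Das and 0 to 1 for the interaction at 72 h, and 1 to 2 for the change in the response to S + D. It did not change in the other comparisons.

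Libraries with the same number at 1 time had correlations of their deviations from the group means from -0.03 to 0.32, no higher than those with different numbers (median 0.18), while unnumbered libraries had 0.52 to 0.67, so the numbers were not taken to pair the libraries. In the replicate block VIM with Sal at 24 h was 0.93 (edgeR adjusted p = 2.62e-06).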
